A study of Mus musculus with 9 samples.

Results

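The stefins and cystatins are small proteins that block papain-like cysteine proteases. Described here are 7 of their genes in mouse lung: Stfa1, Stfa2, Stfa2l1, Stfa3, Cstdc4, Cstb and Cst3. They were found by gene name in a table of 55851 genes, and each name matched 1 gene identifier. All 7 were among the 17716 genes with a mean level of at least 0.2 FPKM, a read count scaled to gene length and library size. The 7 were selected on their FPKM differences between DJ-1 knockout and wild-type libraries, so their levels there are given as a description, without a test. The 5 stefin A genes were lower in knockout libraries than in challenged wild-type libraries. Cst3 was lower by less, and its ranges in the 2 groups overlapped once the FPKM sums of the libraries were made equal. No direction can be given for Cstb, whose ranges in the 2 groups overlapped.

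RNA of total lung cells from female C57BL/6J mice was sequenced in 3 groups of 3 libraries. The groups were DJ-1 knockout mice given ovalbumin (DJ-1 KO OVA, with 3 libraries labelled DJ1_KO_OVA_263, DJ1_KO_OVA_266 and DJ1_KO_OVA_267), wild-type mice given ovalbumin (WT OVA, libraries 5, 6 and 9) and wild-type mice given phosphate-buffered saline (WT PBS, libraries 1, 2 and 3), all labelled with a time of 7 weeks. Ovalbumin challenge is a model of allergic airway inflammation, and DJ-1, the product of the gene Park7, guards cells against oxidative stress. No group held knockout mice given saline, so genotype was compared only under ovalbumin, and in DJ-1 KO OVA against WT PBS genotype and challenge cannot be told apart. The labels do not say how the knockout was made or whether each library was 1 animal, so the spread between libraries may be technical.

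Stefins A and B act inside cells, where they hold cathepsins that leak from lysosomes, while cystatin C, the product of Cst3, is secreted and blocks cathepsins outside cells. Their targets, such as cathepsins B, L, S and K, break down proteins in lysosomes and, when released, in tissue matrix. Mice carry a cluster of stefin A genes where humans carry a single gene, and in mice several of these are known as genes of neutrophils and other myeloid cells.

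The libraries held 20812192 to 29080130 reads, recovered from the table. Park7 fell to 5.08 ± 1.92 FPKM (SD, n = 3) in DJ-1 KO OVA, against 57.2 ± 3.78 FPKM in WT OVA (adjusted p = 0.00019, limma). Of the 17716 genes, limma with Benjamini-Hochberg adjustment at 0.05 called 14.2% between the OVA groups, 5.93% higher and 8.24% lower in DJ-1 KO OVA, and 0.00564%, which is 1 gene, between WT OVA and WT PBS. Short messenger RNAs differed as a class. Among 119 other protein-coding genes of 600 bases or less, the median difference was -0.53 on the log2 scale for DJ-1 KO OVA minus WT OVA and 0.42 for WT OVA minus WT PBS, against 0.20 and -0.07 in 9560 genes of over 3000 bases. Summed ribosomal protein levels moved the same way, at 21349 to 46141 FPKM in DJ-1 KO OVA, 58066 to 83005 FPKM in WT OVA and 34474 to 67081 FPKM in WT PBS. The part these differences play in the values below was not tested, and values with the length trend of each library removed are given beside them.

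The 5 stefin A genes lie together on chromosome 16 (GRCm38), in a window of 298.6 kb from 36156811 to 36455392. Their promoters are shown because the genes share sequence just upstream of their starts. The sequences are from RefSeq (GRCm38.p6) and give the 150 bases before the start, 5′ to 3′ on the gene's strand, with the longest run of bases common to all 5 genes in capitals. They are shown for the 3 genes whose window held no annotated exon: Stfa2l1 at chr16:36156661-36156810 on the plus strand, Cstdc4 at chr16:36184062-36184211 on the plus strand and Stfa3 at chr16:36455393-36455542 on the minus strand.
Stfa2l1: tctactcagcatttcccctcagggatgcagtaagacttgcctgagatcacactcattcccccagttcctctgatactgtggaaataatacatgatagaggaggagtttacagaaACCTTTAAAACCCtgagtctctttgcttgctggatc
Cstdc4: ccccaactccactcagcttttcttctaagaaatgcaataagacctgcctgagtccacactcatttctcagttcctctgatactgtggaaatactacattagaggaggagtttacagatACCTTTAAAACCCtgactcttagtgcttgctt
Stfa3: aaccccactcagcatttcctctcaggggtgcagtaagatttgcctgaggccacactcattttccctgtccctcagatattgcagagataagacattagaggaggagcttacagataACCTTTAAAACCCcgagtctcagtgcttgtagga

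The shared run, ACCTTTAAAACCC, has 13 bases and ends 19 to 23 bases before the RefSeq start in the 5 genes. In Stfa1 and Stfa2 the gene model of the deposited table starts further upstream, so there the run lies inside the gene, and 150 and 94 of the 150 bases lie in an annotated exon. On either strand the run was found in the last 150 bases of 8 of 32851 mouse promoters, which is 0.0244%. These were the promoters of the 5 genes, Csta3, Cstdc3 and Gm7260. The window of Cstdc5, a further gene of this region, ended on all but the last base of the run, so the full run could not be found there. The 10 pairs of stefin A promoters were 76.6% to 86.4% identical over the 150 bases, and 39.1% to 44.0% identical to the promoter of Cst3. GAGGAA, the core bound by PU.1, a factor of myeloid cells, was found on either strand in 4 of the 5 stefin A windows and in 14.5% of all promoters. In Stfa2 it lies in the part of the window that is annotated exon. The windows are much alike, so the 4 are not independent cases. TTGCNNAA, a C/EBP core, was found among the 5 only in that of Stfa1, where the window lies wholly in an annotated exon, and in 5.46% of all promoters. TATAAA was in none of the 5 and in 7.57% of all promoters. No entry was found for Cstb.

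Stfa2l1, stefin A2 like 1 (ENSMUSG00000059657, chromosome 16, 36156811 to 36161953, plus strand), was the stefin A gene with the highest level per length in every library. It had 11.2, 24.5 and 9.95 FPKM in DJ-1 KO OVA, 173, 146 and 225 FPKM in WT OVA, and 163, 168 and 78.5 FPKM in WT PBS. All 3 knockout libraries were below all 6 wild-type libraries, and the wild-type groups overlapped. The group means were 15.2 ± 8.03 FPKM in DJ-1 KO OVA, 181 ± 40.2 FPKM in WT OVA and 136 ± 50.2 FPKM in WT PBS (SD, n = 3 each). DJ-1 KO OVA was therefore at 8.38% of the WT OVA mean. On 162, 242 and 102 reads in the knockout libraries and 1389 to 1857 in WT OVA, the difference of mean log2(FPKM + 0.5) was -3.62.

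Cstdc4 (ENSMUSG00000079597, chromosome 16, 36184212 to 36188111, plus strand), another gene of the stefin A type, had 1.40, 5.34 and 1.08 FPKM in DJ-1 KO OVA, 30.5, 24.7 and 34.7 FPKM in WT OVA, and 26.2, 30.0 and 13.1 FPKM in WT PBS. The knockout libraries again lay below every wild-type library, with DJ1_KO_OVA_266 the highest of the 3. The log2 difference between DJ-1 KO OVA and WT OVA was -3.54. The table divides its reads by 1862 bases, the length of a model that includes a transcript with a retained intron, while its coding transcript has 414 bases. With that length the means would be 11.7 ± 10.7 FPKM in DJ-1 KO OVA, 135 ± 22.8 FPKM in WT OVA and 104 ± 39.8 FPKM in WT PBS, close to those of Stfa2l1, and the ratios between groups stay the same. This takes all its reads as coming from the coding transcript, which was not checked.

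Stfa1, the gene for stefin A1 (ENSMUSG00000071562, 36276951 to 36285373, plus strand), had 0.450, 1.01 and 0.345 FPKM in DJ-1 KO OVA, 11.6, 11.3 and 14.1 FPKM in WT OVA, and 9.10, 9.74 and 5.09 FPKM in WT PBS. Every knockout library was well below the lowest wild-type value. The log2 difference between the OVA groups was -3.58, on 6 to 17 reads in a knockout library and 158 to 197 in a WT OVA library.

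Stfa2 (ENSMUSG00000022902, 36403992 to 36408457, minus strand) and Stfa3 (ENSMUSG00000054905, 36450537 to 36455392, minus strand), which encode stefins A2 and A3, had the lowest levels of the 5. Stfa2 had 0, 0.899 and 0 FPKM in DJ-1 KO OVA, 5.64, 3.43 and 4.97 FPKM in WT OVA, and 3.98, 2.07 and 1.17 FPKM in WT PBS. Its 2 zeros are counts of 0 reads, which allow up to 0.185 FPKM in DJ1_KO_OVA_263 and 0.260 FPKM in DJ1_KO_OVA_267, taking 3 reads as the limit for counting error only. Stfa3 had 0.212, 0.411 and 0.198 FPKM in DJ-1 KO OVA, 4.68, 3.71 and 4.07 FPKM in WT OVA, and 2.27, 2.96 and 0.869 FPKM in WT PBS. With 2 to 4 reads of Stfa3 in a knockout library, its order among those 3 libraries cannot be read. The log2 differences between DJ-1 KO OVA and WT OVA were -2.85 for Stfa2 and -2.59 for Stfa3, and they depend on the 0.5 FPKM added before the log.

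**Figure D1:**
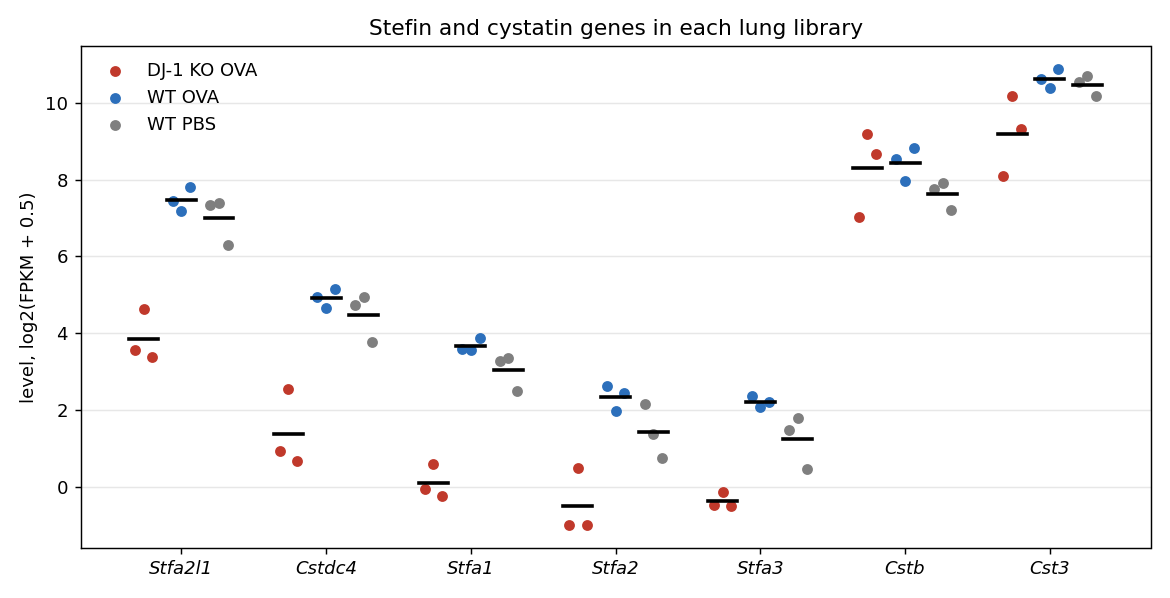
Level of each gene as log2(FPKM + 0.5) in DJ-1 KO OVA, WT OVA and WT PBS. Points are libraries and bars are group means of 3; the 5 stefin A genes are lowest in the knockout libraries, Cst3 less so, and the Cstb groups overlap.

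Stfa2l1 held the largest share of the stefin A sum in every library, and how large depends on the length taken for Cstdc4. Together they had 13.3, 32.1 and 11.6 FPKM in DJ-1 KO OVA, 225, 189 and 283 FPKM in WT OVA, and 204, 213 and 98.8 FPKM in WT PBS. At the length in the table the share of Stfa2l1 was 84.5%, 76.1% and 86.0% in DJ-1 KO OVA, 76.7% to 79.6% in WT OVA and 78.9% to 79.7% in WT PBS. With Cstdc4 at 414 bases it was 61.7%, 48.1% and 64.9% in DJ-1 KO OVA, 52.1% to 55.7% in WT OVA and 52.9% to 55.0% in WT PBS, and Cstdc4 held 31.6% to 47.3%, 38.6% to 41.3% and 39.8% to 42.5% in the same groups. The share of Stfa1 was lower in every knockout library than in every wild-type one, at 2.99% to 3.38% in DJ-1 KO OVA, 4.98% to 5.97% in WT OVA and 4.46% to 5.15% in WT PBS at the length in the table, and also at 414 bases. Across the 9 libraries the 10 pairs had Pearson correlations of 0.939 to 0.995 on the log2 scale; these are descriptions over libraries that differ by group.

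Parts of these transcripts are near copies, so single genes are less certain than the sum. The coding sequences of Stfa2l1 and Stfa2 were 96.4% identical, and those of Cstdc4 and its neighbour Csta2 96.9%. Of the 50-base stretches of the transcript, 35.6% in Cstdc4, 25.4% in Stfa1, 24.6% in Stfa2l1 and 15.9% in Stfa2 occurred unchanged in a transcript of another gene. None of those of Stfa3, Cstb or Cst3 did. Csta2, outside the sum, held all of the shared stretches of Cstdc4. Cstdc5, also outside it, held 20.7% of the stretches of Stfa1.

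Cstb encodes stefin B, a cytosolic inhibitor made in most tissues (ENSMUSG00000005054, chromosome 10, 78425669 to 78427622, plus strand). It had 131, 584 and 406 FPKM in DJ-1 KO OVA, 374, 249 and 451 FPKM in WT OVA, and 218, 240 and 149 FPKM in WT PBS. DJ1_KO_OVA_263 was the lowest of all 9 and DJ1_KO_OVA_266 the highest, and their group enclosed the others. The means were 374 ± 228 FPKM in DJ-1 KO OVA, 358 ± 102 FPKM in WT OVA and 202 ± 47.4 FPKM in WT PBS. The log2 difference between DJ-1 KO OVA and WT OVA was -0.14, it was 0.48 with the FPKM sums made equal, 0.54 with quantile normalization and 0.35 with the length trend removed, and it was 0.48 without DJ1_KO_OVA_263 and 0.04 without WT OVA library 9. No direction can therefore be given for Cstb.

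Cst3 encodes cystatin C (ENSMUSG00000027447, chromosome 2, 148871722 to 148875692, minus strand) and was the most abundant of the 7 genes in all 9 libraries, with 275, 1157 and 644 FPKM in DJ-1 KO OVA, 1596, 1340 and 1906 FPKM in WT OVA, and 1508, 1676 and 1161 FPKM in WT PBS. The knockout libraries lay below all wild-type ones, but DJ1_KO_OVA_266, at 1157 FPKM, came within a few FPKM of WT PBS library 3. With equal FPKM sums DJ1_KO_OVA_266, at 1186, was above WT OVA library 6, at 1138, so the OVA groups then overlapped. The means were 692 ± 443 FPKM in DJ-1 KO OVA, 1614 ± 284 FPKM in WT OVA and 1448 ± 262.7 FPKM in WT PBS. The log2 difference between DJ-1 KO OVA and WT OVA was -1.44, -0.60 with quantile normalization, -0.89 without DJ1_KO_OVA_263 and -1.92 without DJ1_KO_OVA_266.

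Both widely made inhibitors can be set against each other within a library, which removes the scaling between libraries. The ratio of Cst3 to Cstb was 2.09, 1.98 and 1.59 in DJ-1 KO OVA, 4.26, 5.37 and 4.23 in WT OVA, and 6.92, 6.99 and 7.79 in WT PBS. The 3 groups did not overlap, and the ratio was lowest in DJ-1 KO OVA. Between WT OVA and WT PBS the log2 ratio differed by -0.65, with an exact two-sided permutation p of 0.1, the smallest that 3 libraries against 3 can give.

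Between the OVA groups, 6 of the 7 genes had every DJ-1 KO OVA library below every WT OVA library, where 18.8% of the tested genes did; this follows from how the genes were picked, and with equal FPKM sums Cst3 overlapped. From the lowest of 17716 differences, Stfa2l1 stood at rank 6, Stfa1 at 7, Cstdc4 at 9, Stfa2 at 24, Stfa3 at 38, Cst3 at 507 and Cstb at 7156. Leaving out 1 library at a time, the stefin A differences stayed between -4.12 and -2.51. With the length trend removed they were -3.22 to -2.11, and Cst3 was at -1.02. Against WT PBS, the knockout differences were -3.16 for Stfa2l1, -3.10 for Cstdc4, -2.94 for Stfa1, -1.93 for Stfa2, -1.62 for Stfa3, -1.28 for Cst3 and 0.67 for Cstb. In that comparison, which shares the knockout libraries, 6 of 7 genes did not overlap and were lower, beside 12.9% of the tested genes.

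**Figure D2:**
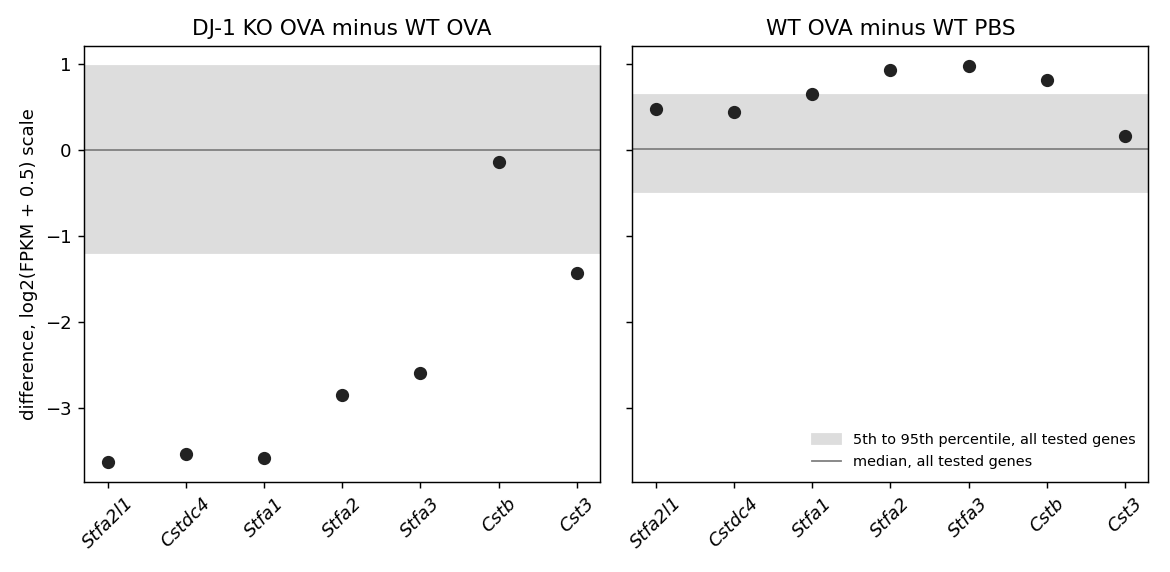
Mean log2(FPKM + 0.5) difference for each gene, DJ-1 KO OVA minus WT OVA at left and WT OVA minus WT PBS at right. The grey band spans the 5th to 95th percentile of all 17716 tested genes; at left the stefin A genes lie far below it, at right Stfa1, Stfa2, Stfa3 and Cstb lie at or above its upper edge.

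Ovalbumin in wild-type mice is the comparison that was not used to pick the genes, although it shares the WT OVA libraries with the one that was. None of the 7 passed the test there (0 of 7 at an adjusted p below 0.05, beside 0.00564% of tested genes; limma gave 1146 genes an unadjusted p below 0.05, and limma-voom on the recovered reads called 0). All 7 had a higher mean in WT OVA than in WT PBS. Their median log2 difference was 0.64, and that of all tested genes was 0.0044. Among the other protein-coding genes of 600 bases or less, 80.7% were also higher in WT OVA.

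Stfa3 had the largest of these differences, 0.98 (SE 0.31, unadjusted p = 0.0097, adjusted p = 0.73, limma), followed by Stfa2 at 0.93 (SE 0.44), Cstb at 0.81 (SE 0.49) and Stfa1 at 0.64 (SE 0.29, unadjusted p = 0.047, adjusted p = 0.73, limma). Stfa1, Stfa3 and Cstb had every WT OVA library above every WT PBS library, 3 of 7 genes beside 7.25% of all tested genes. Stfa2l1, Cstdc4 and Cst3, at 0.47, 0.44 and 0.16, overlapped. With the length trend removed the 5 stefin A differences were 0.26 to 0.76 and Cst3 was at -0.01. Cst3 was also negative with equal FPKM sums (-0.16) and quantile normalization (-0.15), so it has no direction here. WT PBS library 3, whose FPKM sum was the lowest of the wild-type libraries, was the lowest of its group for all 7 genes, as WT OVA library 6 was in its own group.

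The stefin A region holds 24 further genes, of which 19 had 0 reads in all 9 libraries and 3 passed the filter. Those 3 are stefin A-type genes that were not among the 7. They are close relatives of genes picked for their falls, so tests on them are not independent of that choice. Csta3 fell to 0.402 ± 0.534 FPKM in DJ-1 KO OVA, against 4.45 ± 2.15 FPKM in WT OVA (log2 difference -2.53, adjusted p = 0.015, limma), and Cstdc5 fell to 0.169 ± 0.161 FPKM, against 3.86 ± 0.772 FPKM (-2.72, adjusted p = 0.0047). The call of Csta3 was lost without DJ1_KO_OVA_267 (adjusted p = 0.067) or WT OVA library 5 (0.055), and without the filter on low values (0.055). Both rest on few reads, 2, 7 and 0 of Csta3 and 5, 6 and 0 of Cstdc5 in the knockout libraries, and over the other settings their log2 differences ran from -3.97 to -1.95 and from -4.91 to -2.05. Csta2 averaged 0.847 ± 0.537 FPKM in DJ-1 KO OVA and 1.88 ± 0.234 FPKM in WT OVA and was not called (-0.89, adjusted p = 0.099, though 0.025 without DJ1_KO_OVA_266). Cstdc5 shares 33.5% of its 50-base stretches with other genes, the largest part with Stfa1 (23.0%). Csta2 shares 22.0%, all of it with Cstdc4, and Csta3 none. The knockout mean of Cstdc5 was below the 0.2 FPKM of the filter, which it passed through the wild-type libraries. The nearest expressed genes outside were not called: Ccdc58, 64.7 kb to the left, had -0.94 (adjusted p = 0.073, 0.020 without DJ1_KO_OVA_266), and Cd86, a costimulatory receptor 148.5 kb to the right, had -0.52 (adjusted p = 0.25, and a log2 difference of 0.041 under equal FPKM sums).

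**Figure D3:**
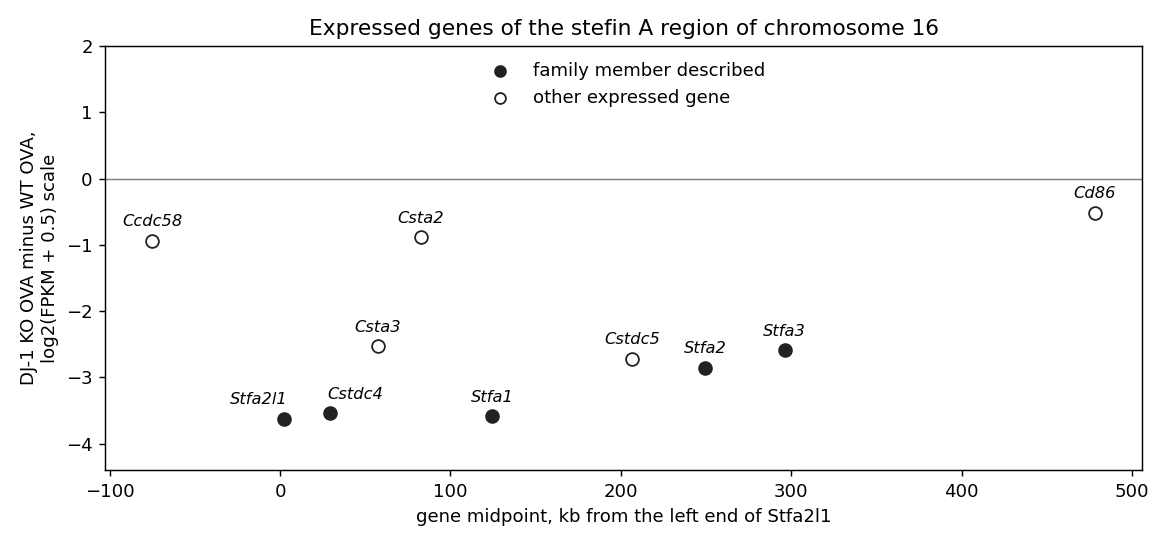
Log2 difference of DJ-1 KO OVA minus WT OVA for the expressed genes of the stefin A region and their neighbours, by distance in kb from the left end of Stfa2l1. Filled points are the 5 stefin A genes described, open points the other genes; the differences inside the region run from -3.62 to -0.89, while Ccdc58 and Cd86 lie at -0.94 and -0.52.

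Counted over the whole superfamily, calls went both ways. Of 28 further family genes listed, 23 were in the table, 7 had 0 reads and 10 passed the filter, the 3 above included; 3 were called lower and 2 higher in DJ-1 KO OVA, beside 8.24% and 5.93% of all tested genes, with a median difference of -0.06. Over the other settings 1 to 4 were called lower and 0 to 2 higher. Cst8, a cystatin known from the reproductive tract, fell to 3.46 ± 2.41 FPKM in DJ-1 KO OVA, against 22.8 ± 6.46 FPKM in WT OVA (-2.71, adjusted p = 0.012; the call was lost without DJ1_KO_OVA_267). The fetuins, plasma proteins made mainly in liver, were higher. Fetub averaged 9.35 ± 2.51 FPKM in DJ-1 KO OVA and 3.70 ± 0.224 FPKM in WT OVA (1.20, adjusted p = 0.022), and Ahsg 1.92 ± 0.354 FPKM and 0.600 ± 0.0834 FPKM (1.13, adjusted p = 0.018), but both calls were lost without DJ1_KO_OVA_267 or any 1 of the WT OVA libraries, at adjusted p of 0.053 to 0.080, and without the filter on low values (0.058 and 0.057). Cst7, which encodes cystatin F of immune cells, averaged 14.4 ± 4.62 FPKM in DJ-1 KO OVA and 14.7 ± 5.03 FPKM in WT OVA (adjusted p = 0.99). Cst9, at 3.73 ± 1.64 FPKM in DJ-1 KO OVA and 2.06 ± 1.57 FPKM in WT OVA, was not called either (adjusted p = 0.27), and none of the 10 was called between WT OVA and WT PBS.

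Most of the proteases that these proteins inhibit had differences above 0, but few passed the test. The inhibitor genes were picked on this comparison, so a contrast in sign with them is partly set by that choice. Of 10 papain-like cathepsins, Ctsk was called higher and Ctsh lower in DJ-1 KO OVA than in WT OVA, beside 14.2% of all tested genes called in either direction. Of the 10 differences 8 were above 0, with a median of 0.50, where the median of all tested genes was 1.1e-16. The share above 0 varied with length, at 25.2% of other protein-coding genes of 600 bases or less and 65.2% of those over 3000 bases. Ctsk encodes cathepsin K, a collagen-degrading protease of osteoclasts and activated macrophages. It had 211, 682 and 830 FPKM in DJ-1 KO OVA and 147, 58.1 and 154 FPKM in WT OVA, all knockout libraries above all WT OVA ones (2.16, SE 0.51, adjusted p = 0.027, limma), and 41.6, 34.7 and 32.3 FPKM in WT PBS. Ctsh encodes an aminopeptidase of lysosomes and alveolar type II cells, and fell to 78.8 ± 38.8 FPKM in DJ-1 KO OVA, against 184 ± 25.4 FPKM in WT OVA (-1.33, SE 0.36, adjusted p = 0.037). Without DJ1_KO_OVA_267 or any 1 of the WT OVA libraries neither was called, at adjusted p of 0.059 to 0.11, and Ctsh was also lost without DJ1_KO_OVA_263 (0.081) or WT PBS library 1 (0.061). Neither was called without the filter on low values or with only the 2 groups compared.

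The other cathepsins did not pass. Ctss, the protease of antigen presentation and the most abundant of them, averaged 1730 ± 933 FPKM in DJ-1 KO OVA and 1226 ± 453 FPKM in WT OVA (adjusted p = 0.63). Ctsl had 0.87 (adjusted p = 0.065), Ctsz 0.68 (0.31), Ctsc 0.56 (0.14), Ctsb 0.53 (0.36), Ctso 0.46 (0.13), Ctsw 0.36 (0.18) and Ctsf -0.37 (0.29) as log2 differences of DJ-1 KO OVA minus WT OVA. The number called depended on the scaling: with equal FPKM sums, which moved the median of all genes by 0.46, 7 were higher and 1 lower, and with quantile normalization 5 and 1. With the length trend removed 2 were higher and 1 lower. No cathepsin of the list was called between WT OVA and WT PBS, where Ctsk had the largest difference (1.60, adjusted p = 0.73). Of 5 cathepsins of other classes and legumain, 1 was called higher in DJ-1 KO OVA, Ctse (0.76, adjusted p = 0.041); it was not called without the filter, with only the 2 groups, or without WT PBS library 1, DJ1_KO_OVA_263, DJ1_KO_OVA_267 or any 1 of the WT OVA libraries, at adjusted p of 0.060 to 0.14.

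Levels of inhibitor and target can be compared within a library. The Cst3 level was 0.192, 0.263 and 0.135 times the summed FPKM of the 10 papain-like cathepsins in DJ-1 KO OVA, 0.659, 0.911 and 0.699 times in WT OVA, and 0.893, 1.00 and 0.761 times in WT PBS. Knockout libraries were again apart from the rest, which is partly set by the choice of Cst3 on the knockout comparison. Between WT OVA and WT PBS this ratio differed by -0.23 on the log2 scale (exact two-sided permutation p = 0.3) and that of Cstb by 0.42 (exact p = 0.1, the smallest possible).

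**Figure D4:**
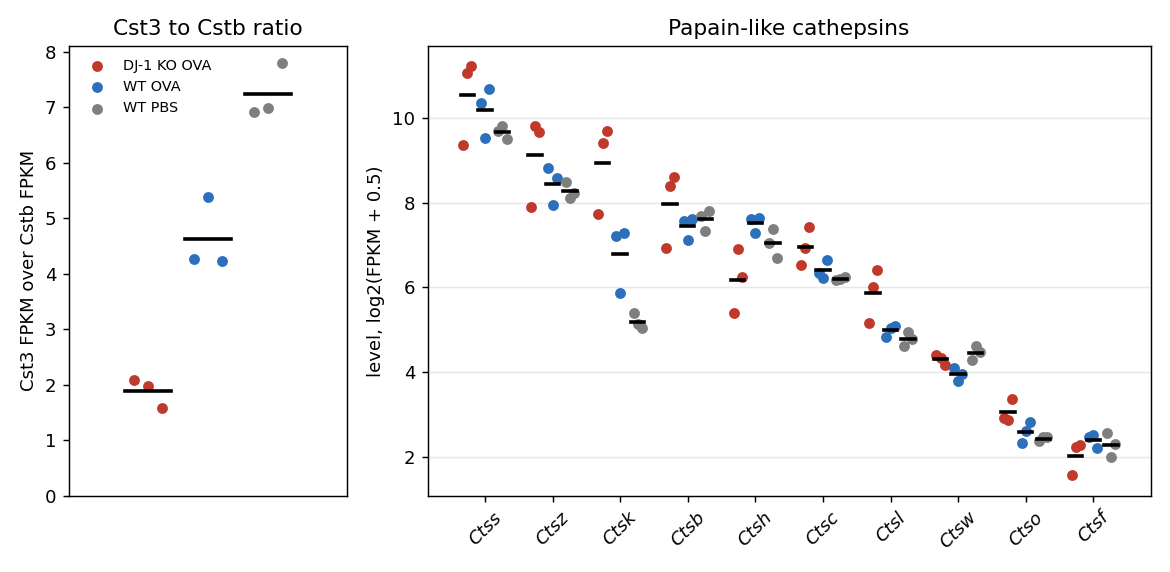
Left, the ratio of Cst3 to Cstb FPKM in each library; right, log2(FPKM + 0.5) of the 10 papain-like cathepsins. Points are libraries and bars group means of 3, in the order DJ-1 KO OVA, WT OVA and WT PBS; the ratio groups do not overlap, and Ctsk runs from 211 to 830 FPKM in the knockout libraries, against 58.1 to 154 FPKM in WT OVA.

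Of 20 neutrophil markers, 11 were called lower and none higher in DJ-1 KO OVA than in WT OVA (median -1.14), beside 8.24% of all tested genes called lower. All 20 were detected, and their summed level was 1707 to 5093 FPKM in DJ-1 KO OVA, 13625 to 19993 FPKM in WT OVA and 9165 to 25447 FPKM in WT PBS. In bulk lung cells, fewer cells of a type and less RNA per cell cannot be told apart. S100a8, a calcium-binding protein abundant in neutrophils, fell to 685 ± 554 FPKM in DJ-1 KO OVA, against 5104 ± 1035 FPKM in WT OVA (-3.17, adjusted p = 0.013; 0.066 without DJ1_KO_OVA_267 and 0.051 without WT OVA library 9). S100a9 had -2.94 (0.018; lost without DJ1_KO_OVA_267 or any 1 of the WT OVA libraries), Retnlg -2.26 (0.012; 0.059 without DJ1_KO_OVA_267) and Ly6g, a surface marker of mouse neutrophils, -2.39 (0.0018). The receptor genes Cxcr2 (-0.18, adjusted p = 0.56, but 0.42 on the log2 scale with equal FPKM sums) and Csf3r (-0.65, 0.083, and 0.038 without DJ1_KO_OVA_266) were not called. Lcn2 was not called either (0.38, adjusted p = 0.45), but was called higher with equal FPKM sums (0.99) and with quantile normalization (0.84). Without the filter on low values S100a8 (adjusted p = 0.067) and S100a9 (0.12) were not called. The count of 11 was 3 without DJ1_KO_OVA_267, 7 without WT OVA library 5 or 6 and 6 without WT OVA library 9. It was 13 without DJ1_KO_OVA_266, and 6 without the filter or with equal FPKM sums, under which 1 was called higher. With the length trend removed it was 9. Calls over all tested genes also moved, to 286 without DJ1_KO_OVA_267, 448 to 548 without a WT OVA library and 5694 without DJ1_KO_OVA_266. The median of the 20 markers was -1.30 to -0.95 leaving out 1 library, -0.53 with equal FPKM sums and -0.90 with the length trend removed.

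Within a library, Stfa2l1 can be set against neutrophil genes of high level. It was at 3.14%, 1.85% and 2.68% of S100a8 in DJ-1 KO OVA, 3.63%, 3.42% and 3.60% in WT OVA, and 3.25%, 2.23% and 3.04% in WT PBS. Of Retnlg it was at 8.93%, 8.42% and 6.66% in DJ-1 KO OVA, 19.9%, 20.3% and 23.4% in WT OVA, and 15.9%, 13.2% and 13.9% in WT PBS. Stfa2l1 was picked for its fall in the knockout libraries, so lower ratios there to genes that fell less are partly set by that choice. All 3 knockout libraries lay below all 3 WT OVA libraries in both ratios, and in those to S100a9 and Ly6g. Below all 3 WT PBS libraries they lay in 1 of the 4 ratios, that to Retnlg; of S100a9 Stfa2l1 was at 0.921% to 1.35% in DJ-1 KO OVA and 1.08% to 1.67% in WT PBS. The mean log2 level of the 5 stefin A genes, less that of the 20 markers, was -3.40 ± 0.310 in DJ-1 KO OVA, -1.33 ± 0.214 in WT OVA and -2.29 ± 0.454 in WT PBS. WT OVA exceeded WT PBS in this measure by 0.97 (exact two-sided permutation p = 0.1, the smallest possible). Its low knockout values are partly set by the choice of the stefin A genes for their falls. The stefin A genes other than Cstdc4 have 412 to 710 bases, and the markers 434 to 6389 bases. Short and long genes differed as classes between the groups, and this measure was not computed with the length trend removed. The part of neutrophil number in the stefin values was not tested.

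**Figure D5:**
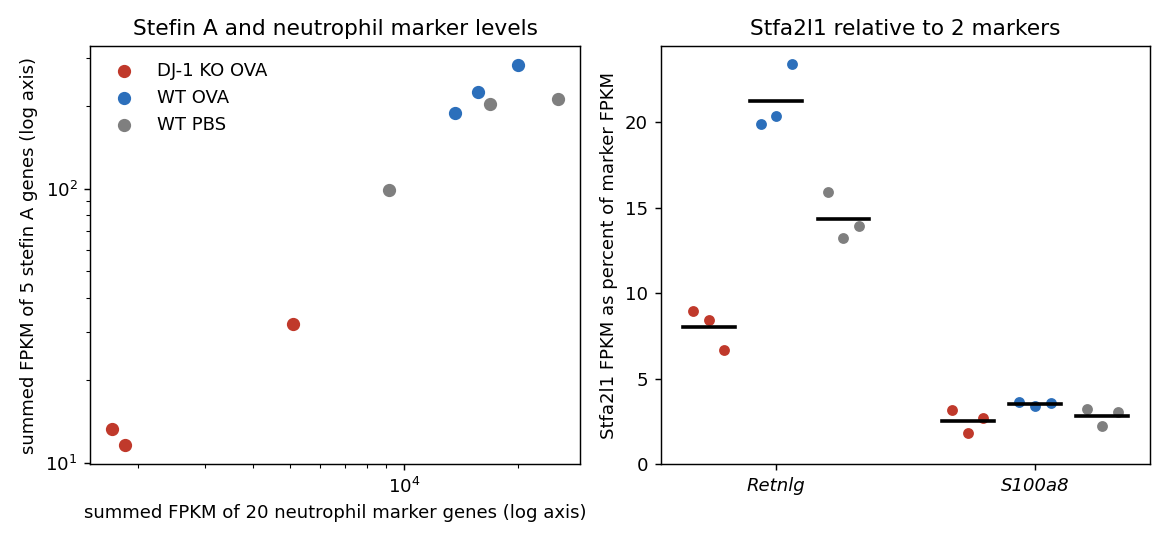
Left, summed FPKM of the 5 stefin A genes against summed FPKM of 20 neutrophil markers, both axes logarithmic, 1 point per library. Right, Stfa2l1 as a percent of Retnlg and of S100a8, with bars at group means of 3; the Retnlg groups do not overlap, from 6.66% to 8.93% in DJ-1 KO OVA and 19.9% to 23.4% in WT OVA.

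Counts for other cell markers and regulators are to be read beside the 5.93% of all tested genes called higher and 8.24% called lower in DJ-1 KO OVA than in WT OVA. Of 8 transcription factors of granulocytes, 3 were called lower in DJ-1 KO OVA: Cebpb at 163 ± 75.4 FPKM, against 477 ± 55.4 FPKM in WT OVA (-1.65, adjusted p = 0.025), Cebpd (-1.43, 0.021) and Cebpa (-1.11, 0.037), while Spi1, which encodes PU.1, had -1.22 (0.075, and 0.0096 without DJ1_KO_OVA_266). Over the other settings 0 to 4 of the 8 were called lower, and the calls of all 3 were lost without the filter or without DJ1_KO_OVA_263, DJ1_KO_OVA_267 or any 1 of the WT OVA libraries, at adjusted p of 0.052 to 0.12. Of 10 monocyte markers 3 were lower and 1 higher, of 10 macrophage markers 1 each way, of 10 alveolar macrophage markers 3 lower and 1 higher, and of 8 B cell markers 3 lower. Of 8 T cell markers 5 were higher. No squamous or basal epithelial marker of the 10 tested was called; stefin A is also known from stratified epithelium, and Sprr1b, a marker of it, had 0 reads. WT OVA library 5 stood apart in this list: its summed level was 92.5 FPKM, against 9.20 to 15.8 FPKM in the other 8 libraries. That library was also the highest of its group for Stfa2 and Stfa3, whose differences without it were -2.72 and -2.51 for DJ-1 KO OVA minus WT OVA and 0.79 and 0.90 for WT OVA minus WT PBS. Of 10 airway and alveolar epithelial markers 3 were lower and 1 higher, of 10 dendritic cell markers 1 was higher, and none of the eosinophil or of the mast cell and basophil markers was called. Over the other settings the number lower was 0 to 4 for monocyte, 0 to 1 for macrophage, 3 to 4 for alveolar macrophage, 0 to 4 for B cell and 0 to 5 for airway and alveolar epithelial markers, and the number higher was 0 to 5 for T cell and 0 to 3 for dendritic cell markers. Their part in the stefin and cystatin values was not tested.

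Among 11925 genes of other families, the 3 with the most similar pattern to each of the 7 over the 9 libraries were listed by Pearson correlation of log2 levels. Park7 came first for Stfa1 (0.994) and Stfa2l1 (0.991), followed by mt-Nd3, a mitochondrial gene of complex I (0.991 and 0.989). Both stefin A genes were picked for falling in libraries where Park7 is knocked out, so high correlations with it follow from that choice. S100a8 came first for Cstdc4 (0.993), Fdxacb1 for Stfa2 (0.989) and, after a transcript with no gene name, Sult1a1 for Stfa3 (0.973). The genes most like Cstb were others: the C-type lectin receptors Clec4b1 (0.988) and Clec4a2 (0.987) and the chemokine Ccl6 (0.981), and those most like Cst3 were Ubtd1 (0.993), Tmem219 (0.993) and Prdx5 (0.991). Cstb correlated with the stefin A genes at 0.0084 to 0.22, Cst3 with them at 0.80 to 0.89 and Cstb and Cst3 with each other at 0.43. These 9 points fall into groups, so the values describe the libraries and carry no test.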

How the data were processed

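Per the labels' protocols, total RNA went into libraries by a TruSeq RNA kit. Trimmomatic, HISAT2, HTSeq and the build GRCm38.p6 are named in the submitters' processing notes; versions and the strand setting were not given in the sources used here. The authors deposited a table of FPKM for 55851 genes, per the file headers. FPKM times gene length was a whole multiple of 1 read for 100% of values within 0.01 reads, so reads were recovered. The authors' library sizes were 0.890 to 1.21 times the recovered totals, so the FPKM were already scaled between libraries.

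The 7 genes, the gene lists and the rules were chosen with earlier results of these data known. Limma 3.58.1 under R 4.3.3 was fitted once to the 9 libraries, with a trend on the mean and 6 residual degrees of freedom. The values were log2(FPKM + 0.5) of the 17716 genes averaging 0.2 FPKM or more, with Benjamini-Hochberg adjustment over all of them. The fit was also run on simulated reads. These had the same relative spread for every gene and no length trend, so they do not cover the length trend of these libraries. Limma-voom on the recovered reads called 3185 genes in the knockout against WT OVA, 0 in WT OVA against WT PBS and 1776 in the knockout against WT PBS. Differences on the log2(FPKM + 0.5) scale understate those of low genes. Named genes were the 7, other family genes averaging 1 FPKM or more, all papain-like cathepsins, the expressed genes of the stefin A region and its nearest neighbours, genes among the 4 highest of each other list, and the 3 most correlated genes of each of the 7; Ly6g, Cxcr2 and Csf3r, the neutrophil gene Lcn2, and Ctse and Sprr1b, were named for what they mark or because they were the only such gene, after their values were seen. Alternatives were other pseudocounts (0.1 and 1), no filter or a filter at 1 FPKM, equal FPKM sums, quantile normalization, only the 2 groups compared, limma-voom on the recovered reads, each library left out and, chosen after seeing the data, removal of each library's trend with log2 gene length by a loess fit, and Cstdc4 at the length of its coding transcript.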

Additional observations from a re-analysis of the deposited data

How the results depend on the processing

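No paired analysis was possible because the groups share no replicate numbers. The stefin A genes kept their sign against WT OVA in every setting, and the median difference of the 7 genes, DJ-1 KO OVA minus WT OVA, was -3.66 with a pseudocount of 0.1 FPKM, -2.18 with a pseudocount of 1 FPKM, -3.77 with limma-voom, and -3.35 to -2.61 leaving out 1 library. For WT OVA minus WT PBS the median was 0.37 to 0.80 leaving out 1 library, and 0 of 7 genes were called in every setting. Genes called between the OVA groups were 2510, and 645 without a filter, 5034 with equal FPKM sums, 1131 with only the 2 groups and 286 to 5694 leaving out 1 library; between DJ-1 KO OVA and WT PBS 1513, and 669 without a filter, 700 with only the 2 groups and 436 to 3897. Between WT OVA and WT PBS 1 gene was called, 2 without a filter, 0 with a pseudocount of 0.1, a filter at 1 FPKM, equal sums, quantile normalization, 2 groups, limma-voom or the length trend removed, and 0 to 14 leaving out 1 library. Papain-like cathepsins called between the OVA groups were 2, and 0 without a filter or with only the 2 groups, 8 with equal sums, 6 with quantile normalization and 0 to 4 leaving out 1 library; 0 were called in every setting between WT OVA and WT PBS. Signs turned, the cause not tested: for WT OVA minus WT PBS, Cst3 with equal sums (-0.16), quantile normalization (-0.15) and the length trend removed (-0.010); with equal sums Ctsc (-0.12), Ctsf (-0.18), Ctsl (-0.091), Ctso (-0.13) and Ctsz (-0.14, also -0.14 with quantile normalization); leaving out 1 library, Ctsf ran from -0.040 to 0.25, below 0 without WT PBS library 2, and Ctsz from -0.0093 to 0.42, below 0 without WT OVA library 5. For DJ-1 KO OVA minus WT OVA, Ctsf was 0.18 with equal sums, and Cst7, at -0.0082 as reported, was 0.59 with equal sums, 0.046 with quantile normalization, 0.0092 with limma-voom, 0.45 with the length trend removed and -0.30 to 0.20 leaving out 1 library; Cxcr2 was 0.42 and Cd86 0.041 with equal sums, and leaving out 1 library Cxcr2 ran from -0.29 to 0.0052, above 0 without DJ1_KO_OVA_263, and Lcn2 from -0.042 to 0.60, below 0 without DJ1_KO_OVA_266. Stfa2, Stfa3, Csta3 and Cstdc5 rest on 10 reads or fewer in the knockout libraries.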
